A study of Homo sapiens with 12 samples.

Results

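The immediate early and NR4A group comprised 10 genes, namely the nuclear receptors NR4A1, NR4A2 and NR4A3, the AP-1 subunits FOS, FOSB, FOSL1, JUN and JUNB, the zinc finger factor EGR1 and the stress-inducible gene IER3. The genes were chosen by symbol from the 60580 genes listed in each library. All 10 reached 20 counts in at least 1 library and were therefore among the 16123 genes tested. IER3 is induced together with the others but does not encode a transcription factor, so that the usual name of the group holds for the other 9 genes only.

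RNA of HCT116 cells, an established human colorectal cancer cell line with functional p53, was sequenced in 4 states. Cells of either genotype, WT or miR-34a/b/c-KO, had received 5-FU, a pyrimidine analog used as chemotherapeutic, or its solvent DMSO. All libraries were taken after 48 h, so that no early time point was analysed here. WT cells were clones derived from HCT116 cells that had received the Cas9 plasmid without guide RNA. In miR-34a/b/c-KO cells (KO cells below) the segments coding for mature miR-34a and miR-34b/c had been removed with CRISPR/Cas9 from both host genes, and several clones of each genotype were made. The study calls the replicates of a state biological, and whether they were different clones is not stated, so that the p-values measure the spread between these libraries. The library labelled WT 5-FU replicate 1 repeated the counts of WT DMSO replicate 3 (0 of 60580 genes differed) and was left out, which left 2 libraries of WT cells treated with 5-FU and 3 of each other state, 11 in all.

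Total counts ranged from 22831415 to 39064210 per library (median 25698417). The hairpin genes MIR34A, MIR34B and MIR34C were at 0 in all 11 libraries, and the host gene MIR34AHG, whose counts are not limited to the deleted segment, was at 4.84, 22.2, 16.2 and 64.6 CPM, the counts scaled to a common library total, in WT DMSO, KO DMSO, WT 5-FU and KO 5-FU cells, so that the deletion could not be checked on these counts. The p53 target CDKN1A was at a mean of 167 and 469 CPM in WT and KO cells treated with DMSO and at 2078 and 2481 CPM after 5-FU. All 8 epithelial markers were detected in every state, and their summed level was 5650 to 5924 CPM in WT DMSO, 5790 to 5998 in KO DMSO, 11582 to 12727 in WT 5-FU and 9005 to 9485 in KO 5-FU libraries. Most of the sum came from KRT8, KRT18 and KRT19, with KRT8 at means of 2366, 2527, 5817 and 4243 CPM in the same order. CDH1 and CLDN4 were also higher after 5-FU in both genotypes. EPCAM was instead at 432, 420, 331 and 301 CPM, and CLDN3 at 38.3, 16.1, 35.8 and 14.3 CPM. Of 10 markers of other cell types, VWF and COL1A1 passed the filter, and the summed level of the list was 23.4 to 28.3, 47.6 to 51.9, 55.7 to 66.7 and 71.7 to 72.5 CPM in the same order, most of it from COL1A1. The part of these differences in the results was not tested. In bulk RNA, fewer cells that express a gene and less of its mRNA per cell cannot be told apart.

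Immediate early genes are transcribed within minutes of a stimulus without new protein synthesis. Growth factors act on many of them through ERK, ternary complex factors such as ELK1 and serum response factor at CArG boxes, whereas stress kinases and cAMP act through AP-1 and CREB sites, and the mRNAs are short-lived because of AU-rich elements in their 3′ UTRs. FOS and JUN proteins pair to form AP-1. EGR1 binds GC-rich sites and induces its own corepressors NAB1 and NAB2, the NR4A proteins are orphan nuclear receptors that act without a known classical ligand, and FOSL1 (FRA-1) is long known for its stable expression in tumor cells with active ERK signaling. IER3 (IEX-1) is a short-lived protein that modulates ERK signaling and cell death.

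The deleted microRNAs repress mRNAs that pair with their seed, here bases 2 to 8 of the mature RNA, shown in capitals. The mature sequences of RefSeq (GRCh38.p14) were as follows, and miR-34c-5p is named only.
miR-34a-5p: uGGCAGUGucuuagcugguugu
miR-34b-5p: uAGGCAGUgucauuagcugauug

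The 3′ UTR of the canonical transcript held the complement of the miR-34a seed, CACTGCC, in 4 of the 10 genes, beside 17.6% of the 3′ UTRs of 13125 genes tested. FOSL1 had 2 matches, and NR4A2, FOS and FOSB had 1 each. The match in NR4A2 overlaps 1 to the miR-34b seed (ACTGCCT, in 15.8% of the 3′ UTRs), the only one among the 10 genes. The sites are shown because they are where the deleted microRNAs could pair with these mRNAs, each as 30 bases of the transcript strand with the seed complement in capitals. Both matches in FOSL1 and that in FOSB are followed by an A.
FOSL1, chr11:65892540-65892569 (- strand): ccccttccagatCACTGCCacactctccat
FOSL1, chr11:65892439-65892468 (- strand): actcaccagcccCACTGCCagcagcagcag
FOS, chr14:75281452-75281481 (+ strand): acccacaagtgcCACTGCCcgagctggtgc
FOSB, chr19:45473151-45473180 (+ strand): cggccactgcgcCACTGCCatcggacagga
NR4A2, chr2:156324534-156324563 (- strand): catgatatgagtCACTGCCtttttttctat

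A match is a description of these letters and no evidence of a site in use. Of the 4 genes with a match, NR4A2 alone was called higher in KO than in WT cells, in DMSO and not in 5-FU, as described below. FOSL1, with 2 matches, was at a lower level in KO cells under both treatments, FOS was lower in DMSO, and the difference of FOSB was under the minimum fold change. The other 2 genes called higher in KO cells in DMSO, NR4A3 and IER3, and JUN, called higher in 5-FU, held no match.

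Promoter sequences, 250 bases before to 50 bases after the start, were given by RefSeq (GRCh38.p14) for 7 of the 10 genes, and NR4A2, FOSL1 and IER3 are named only. The following motifs were searched on both strands, except for the TATA box (TATAAA), searched on the given strand. EGR1 held 2 CArG boxes, 105 and 83 bases before the start, and was the only one of the 7 genes with this motif, which 1.29% of 35116 promoters hold. It also held 1 match to the EGR site (GCGNGGGCG, in 9.43% of promoters) 198 bases before the start. The core of the cAMP response element, TGACG, was found in 24.6% of promoters and in 6 of the 7 genes, with 4 copies in NR4A3, 2 in EGR1 and 1 in FOS, FOSB, JUN and JUNB. FOS, FOSB and JUNB held a TATA box (in 7.33% of promoters) 33, 30 and 31 bases before the start. The full cAMP response element (TGACGTCA, 1.85%), which contains the core, the AP-1 site (TGANTCA, 7.71%) and the NGFI-B response element bound by NR4A proteins (AAAGGTCA, 1.22%) were in none of the windows, and NR4A1, with 2 listed starts, held no motif. No match says only that these letters are absent from the window. The promoters of EGR1, FOS, FOSB and JUN are shown with the motifs in capitals, on the strand of the gene. They do not cover all patterns over the 4 states.
EGR1, chr5:138465229-138465528 (+ strand): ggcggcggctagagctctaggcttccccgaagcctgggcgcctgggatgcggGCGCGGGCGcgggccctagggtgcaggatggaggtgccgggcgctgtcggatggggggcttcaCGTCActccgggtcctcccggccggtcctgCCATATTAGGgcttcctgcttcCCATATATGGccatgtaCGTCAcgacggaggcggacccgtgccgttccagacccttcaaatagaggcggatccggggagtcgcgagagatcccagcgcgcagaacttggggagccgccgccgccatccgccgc
FOS, chr14:75278578-75278877 (+ strand): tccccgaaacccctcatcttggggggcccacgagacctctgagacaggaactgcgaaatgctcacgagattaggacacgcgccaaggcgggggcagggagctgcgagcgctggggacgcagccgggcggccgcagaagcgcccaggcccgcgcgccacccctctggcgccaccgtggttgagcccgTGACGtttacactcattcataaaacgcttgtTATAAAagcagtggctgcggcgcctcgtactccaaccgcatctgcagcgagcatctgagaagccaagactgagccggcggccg
FOSB, chr19:45467746-45468045 (+ strand): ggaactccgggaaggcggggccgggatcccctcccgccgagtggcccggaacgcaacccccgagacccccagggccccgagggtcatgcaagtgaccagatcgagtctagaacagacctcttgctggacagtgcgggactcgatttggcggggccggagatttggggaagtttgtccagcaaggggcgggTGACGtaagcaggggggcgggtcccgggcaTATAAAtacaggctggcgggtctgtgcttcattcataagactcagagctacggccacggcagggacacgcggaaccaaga
JUN, chr1:58783998-58784297 (- strand): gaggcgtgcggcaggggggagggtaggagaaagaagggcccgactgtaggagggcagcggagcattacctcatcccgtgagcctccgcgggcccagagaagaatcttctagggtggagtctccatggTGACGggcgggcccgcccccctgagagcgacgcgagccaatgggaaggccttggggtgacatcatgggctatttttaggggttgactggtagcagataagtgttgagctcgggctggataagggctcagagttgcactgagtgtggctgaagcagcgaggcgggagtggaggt

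The levels of the 10 mRNAs followed several patterns over the 4 states. EGR1 and FOS stood high in WT DMSO cells and NR4A2 in KO DMSO cells, JUN stood high in KO 5-FU cells, IER3 was higher in KO than in WT cells under both treatments, and NR4A1, FOSB and FOSL1 were higher after 5-FU in both genotypes. JUNB was lower in KO than in WT cells in DMSO, under the minimum fold change, and NR4A3, which was higher in KO cells in DMSO, varied between replicates. A call required FDR < 0.05 in the quasi-likelihood test of edgeR, Benjamini-Hochberg adjusted over all genes tested, and a fold change above 1.5. The comparisons share libraries, so that a level that stands apart in 1 state enters a comparison of treatments, a comparison of genotypes and the interaction, and these are not independent of each other.

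**Figure D1:**
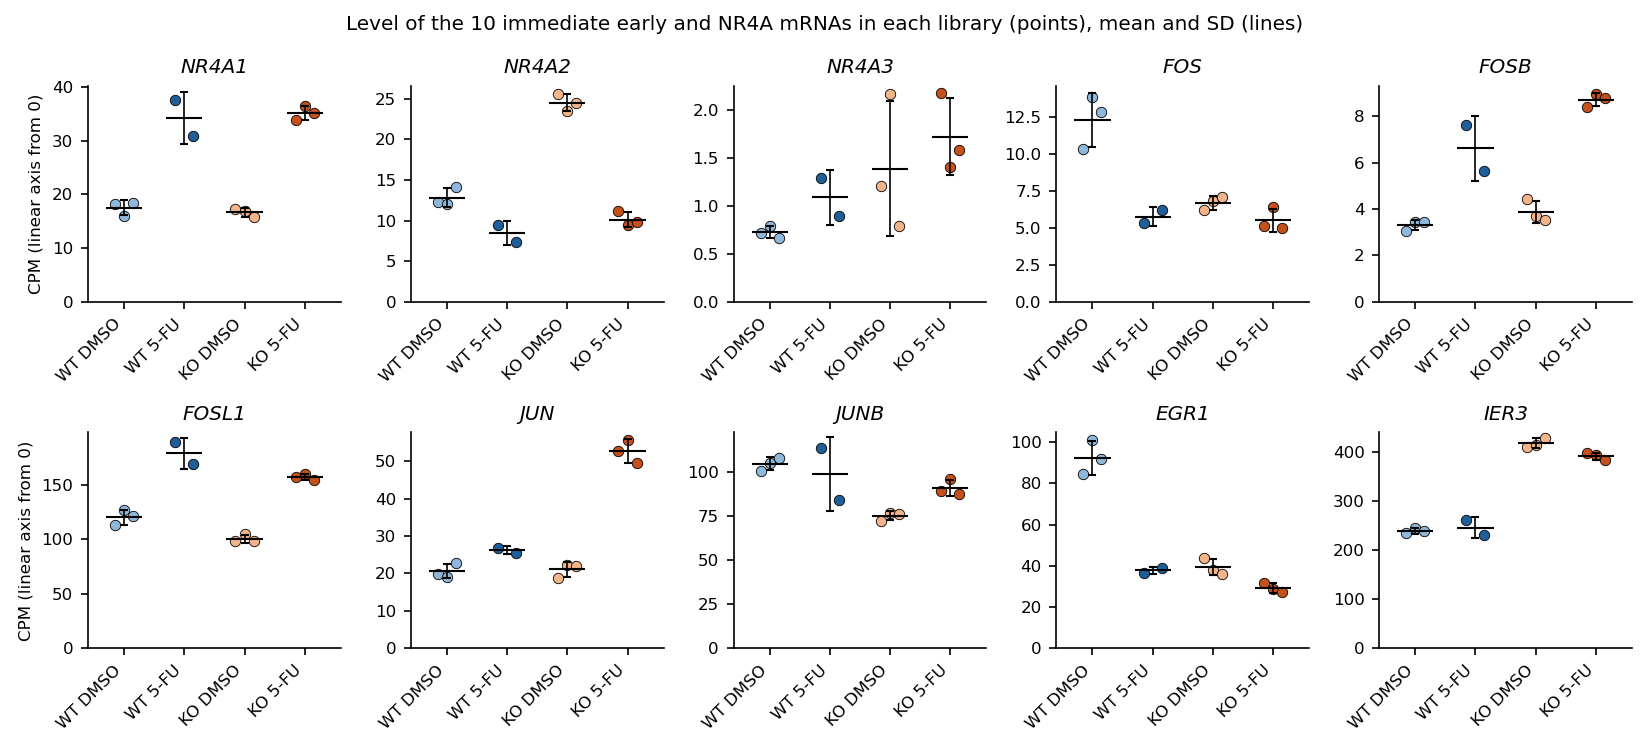
Level of each mRNA (CPM, linear axes from 0) in the 11 libraries, with 1 point per library and lines for the mean and SD of each state (n = 3, and n = 2 for WT 5-FU). EGR1 stands at 84.6 to 101 CPM in WT DMSO libraries and at 27.1 to 43.6 CPM in all others, JUN at 49.6 to 55.8 CPM in KO 5-FU libraries and at 18.8 to 26.9 CPM in all others.

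After 5-FU, 5 of the 10 genes were called in WT cells, where 27.8% of all genes tested were called. NR4A1 and FOSB were higher (18.5% of all genes), and EGR1, FOS and NR4A2 were lower (9.38%). In KO cells 5 genes were called as well, beside 25.2% of all genes. JUN, FOSB, NR4A1 and FOSL1 were higher (13.3% of all genes) and NR4A2 was lower (12.0%). The median log2 fold change of the 10 genes was 0.19 in WT and 0.30 in KO cells, against 0.03 and -0.06 over all genes tested. By FDR alone, without the minimum fold change, 7 of the 10 genes passed in WT and 7 in KO cells, beside 60.2% and 60.4% of all genes.

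Between genotypes, 5 of the 10 genes were called in DMSO, beside 14.1% of all genes. NR4A2, NR4A3 and IER3 were higher in KO cells (9.10% of all genes), and EGR1 and FOS were lower (4.97%). In 5-FU 2 genes were called, beside 18.1% of all genes, and both, JUN and IER3, were higher in KO cells (7.58%). The median log2 difference of the 10 genes was -0.03 in DMSO and 0.14 in 5-FU, against 0.03 and -0.05 over all genes tested. The interaction, which compares the response to 5-FU of KO cells with that of WT cells, was called for 4 of the 10 genes, beside 10.1% of all genes. The response was higher in KO cells for JUN, EGR1 and FOS (3.42% of all genes) and lower for NR4A2 (6.66%). By FDR alone 7 genes passed in DMSO, 5 in 5-FU and 5 in the interaction, beside 46.3%, 49.6% and 26.1% of all genes.

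**Figure D2:**
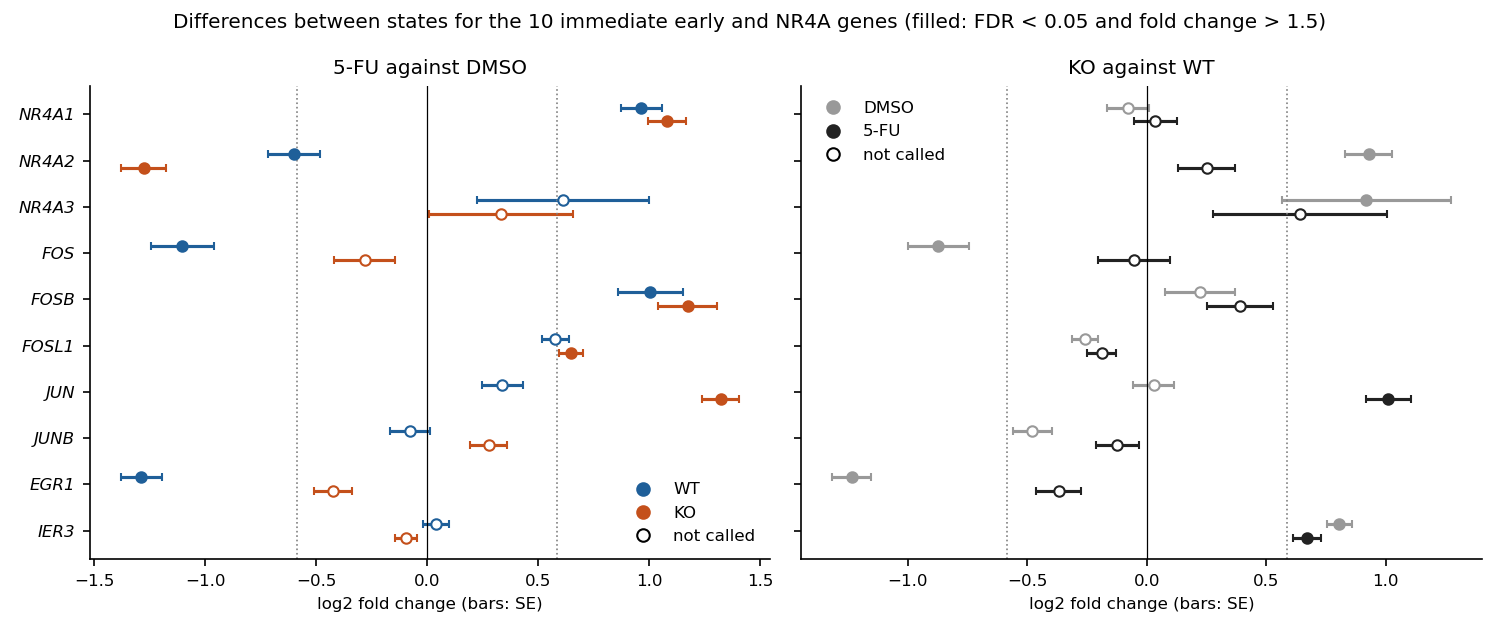
Log2 fold change with its SE for 5-FU against DMSO (left, WT and KO cells) and for KO against WT cells (right, DMSO and 5-FU), filled where called and open where not, with dotted lines at a fold change of 1.5. EGR1, FOS and NR4A2 lie apart between the genotypes on the left, with -1.29 and -0.42, -1.10 and -0.28, and -0.60 and -1.28 in WT and KO cells, whereas NR4A1 lies at 0.96 and 1.08.

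NR4A1 (chr12:52022832-52059507, + strand), also known as NUR77, is an orphan receptor with roles in apoptosis and metabolism. It was at 18.2, 16.0 and 18.4 CPM in the 3 WT DMSO libraries, at 17.3, 16.8 and 15.8 CPM in the 3 KO DMSO libraries, at 37.6 and 30.8 CPM in the 2 WT 5-FU libraries and at 33.8, 36.4 and 35.1 CPM in the 3 KO 5-FU libraries. Every 5-FU library was above every DMSO library, and the genotypes overlapped under both treatments. The log2 fold change after 5-FU was 0.96 (SE 0.09, FDR 1.58e-07) in WT and 1.08 (SE 0.09, FDR 1.73e-08) in KO cells. The difference between these responses, 0.11 (SE 0.13, FDR 0.535), was within the spread between replicates, as were the differences between genotypes (-0.08, SE 0.09, in DMSO and 0.04, SE 0.09, in 5-FU).

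NR4A2 (chr2:156324437-156342348, - strand), or NURR1, is best known for its role in dopaminergic neurons. Its level was 12.3, 12.1 and 14.2 CPM in WT DMSO, 25.7, 23.5 and 24.5 CPM in KO DMSO, 9.51 and 7.40 CPM in WT 5-FU and 11.2, 9.40 and 9.77 CPM in KO 5-FU libraries. The 3 KO DMSO libraries were above all others, and the 5-FU libraries of the genotypes overlapped. In DMSO NR4A2 was 1.90-fold higher in KO than in WT cells (log2 0.93, SE 0.10, FDR 1.22e-06), whereas in 5-FU the log2 difference was 0.25 (SE 0.12, FDR 0.0944). It fell after 5-FU in both genotypes, by 0.60 on the log2 scale in WT cells (SE 0.12, FDR 3.45e-04) and by 1.28 in KO cells (SE 0.10, FDR 1.83e-08), and the responses differed by -0.68 (SE 0.15, FDR 0.00445). The response in WT cells was just past the minimum fold change and ended as a call without WT DMSO replicate 3 (-0.52) or WT 5-FU replicate 3 (-0.44), and the call of the interaction was lost without WT 5-FU replicate 2 (-0.47).

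NR4A3 (chr9:99821855-99866891, + strand), or NOR1, was the least abundant of the 10 mRNAs, with 18 to 55 counts per library. It was at 0.722, 0.794 and 0.666 CPM in WT DMSO, at 1.21, 2.17 and 0.790 CPM in KO DMSO, at 1.30 and 0.891 CPM in WT 5-FU and at 2.18, 1.41 and 1.59 CPM in KO 5-FU libraries. The KO DMSO libraries spread over more than the range of WT DMSO and overlapped with it. The log2 difference between genotypes in DMSO, 0.92 (SE 0.35, FDR 0.0437), passed the threshold, and without KO DMSO replicate 2 it was 0.45 (FDR 0.319). The call was also lost without any 1 of the WT DMSO replicates, KO DMSO replicate 1 or KO 5-FU replicate 3, with values of 0.85 to 0.996. The responses to 5-FU, 0.61 (SE 0.39, FDR 0.186) in WT and 0.33 (SE 0.33, FDR 0.395) in KO cells, were not detectable at this depth. Without KO DMSO replicate 2 the response of KO cells was 0.80 and passed the threshold (FDR 0.0448).

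FOS (chr14:75278826-75282230, + strand) encodes the classical partner of JUN in AP-1. Its level was 10.3, 13.9 and 12.8 CPM in WT DMSO, 6.18, 6.86 and 7.11 CPM in KO DMSO, 5.31 and 6.20 CPM in WT 5-FU and 5.15, 6.43 and 4.97 CPM in KO 5-FU libraries. The 3 WT DMSO libraries were above all others, and the KO 5-FU libraries overlapped with those of both neighboring states. FOS was 1.83-fold lower in KO than in WT cells in DMSO (log2 -0.87, SE 0.13, FDR 3.64e-05). It fell by 1.10 on the log2 scale after 5-FU in WT cells (SE 0.14, FDR 5.53e-06), while the value in KO cells was -0.28 (SE 0.14, FDR 0.0864), and these responses differed by 0.82 (SE 0.20, FDR 0.00648). In 5-FU the difference between genotypes was -0.05 (SE 0.15).

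FOSB (chr19:45467995-45475179, + strand), a relative of FOS whose shortened form accumulates on lasting stimulation, was at 3.07, 3.44 and 3.45 CPM in WT DMSO and at 4.43, 3.70 and 3.52 CPM in KO DMSO libraries. It was at 7.62 and 5.62 CPM in WT 5-FU and at 8.40, 8.96 and 8.81 CPM in KO 5-FU libraries. Every 5-FU library was above every DMSO library. FOSB rose 2.01-fold after 5-FU in WT (SE 0.15 on the log2 scale, FDR 2.01e-05) and 2.25-fold in KO cells (SE 0.13, FDR 1.25e-06), with a log2 difference between the responses of 0.17 (SE 0.20, FDR 0.574). In 5-FU the KO libraries were above the WT libraries by 0.39 on the log2 scale (SE 0.14, FDR 0.0277), under the minimum fold change, and without WT 5-FU replicate 2 this difference was 0.64 and called. The gene lies within ERCC1, a DNA repair gene on the opposite strand. The canonical FOSB transcript shares 0 of its 3775 bases with ERCC1 exons, and other FOSB exons were not checked. ERCC1 was 0.46 higher (SE 0.07) after 5-FU in WT and 0.54 higher (SE 0.06) in KO cells on the log2 scale. Whether the counting used strand is not stated, and the part of ERCC1 reads in the FOSB counts was not tested.

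FOSL1 (chr11:65892049-65900573, - strand) was at 113, 126 and 121 CPM in WT DMSO, at 98.1, 104.6 and 98.4 CPM in KO DMSO, at 189 and 169 CPM in WT 5-FU and at 157, 160.2 and 154 CPM in KO 5-FU libraries. No 2 states overlapped, and all 3 neighbors in the order KO DMSO, WT DMSO, KO 5-FU and WT 5-FU differed at FDR < 0.05. Between WT DMSO and KO 5-FU, 68.2% of all genes passed this threshold, and 60.8% between KO DMSO and WT 5-FU. FOSL1 rose after 5-FU by 0.65 on the log2 scale in KO cells (SE 0.06, FDR 4.26e-08), which was called. In WT cells the value of 0.58 (SE 0.06, FDR 4.77e-07) was a fold change of 1.49 and was not called because of the minimum of 1.5, and the responses differed by only 0.07 (SE 0.08, FDR 0.567), so that the call in 1 genotype is no difference between them. The level was lower in KO than in WT cells by 0.26 in DMSO (SE 0.06, FDR 0.00118) and by 0.19 in 5-FU (SE 0.06, FDR 0.016), both under the minimum fold change.

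JUN (chr1:58776845-58784048, - strand) encodes the core subunit of AP-1, is activated by the kinase JNK and acts on its own promoter. It was at 19.9, 19.1 and 22.8 CPM in WT DMSO, at 18.8, 22.4 and 22.1 CPM in KO DMSO, at 26.9 and 25.4 CPM in WT 5-FU and at 52.9, 55.8 and 49.6 CPM in KO 5-FU libraries. The 3 KO 5-FU libraries were above all others, and the DMSO libraries of the genotypes overlapped. JUN rose 2.50-fold after 5-FU in KO cells (log2 1.32, SE 0.08, FDR 1.17e-09). In WT cells it was higher by 0.34 (SE 0.09, FDR 0.00527), under the minimum fold change, and the responses differed by 0.98 (SE 0.13, FDR 4.19e-05). In 5-FU JUN was therefore 2.02-fold higher in KO than in WT cells (log2 1.01, SE 0.09, FDR 2.66e-07), whereas in DMSO the difference was 0.03 (SE 0.09, FDR 0.817).

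JUNB (chr19:12791486-12793315, + strand), which often opposes JUN at shared sites, was at 100.6, 105 and 108 CPM in WT DMSO and at 72.2, 76.9 and 76.0 CPM in KO DMSO libraries. It was at 114 and 83.9 CPM in WT 5-FU and at 89.0, 95.9 and 87.6 CPM in KO 5-FU libraries. The 2 WT 5-FU libraries lay on either side of the KO 5-FU libraries. None of the differences was called. JUNB was lower in KO than in WT cells in DMSO by 0.48 on the log2 scale (SE 0.08, FDR 1.70e-04), and higher after 5-FU in KO cells by 0.28 (SE 0.08, FDR 0.00834). In WT cells the value after 5-FU was -0.08 (SE 0.09, FDR 0.473). The responses differed by 0.35 (SE 0.12, FDR 0.0421), under the minimum fold change, and leaving out 1 library moved this value between 0.15 without WT 5-FU replicate 3 and 0.59 without WT 5-FU replicate 2, where it was called. Of the 1830 bases of JUNB, 259 (14.2%) are shared with exons of some transcript of HOOK2 on the opposite strand, and HOOK2 was higher in KO than in WT cells in DMSO by 0.27 (SE 0.06), opposite to JUNB, and its part in the counts was not tested.

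EGR1 (chr5:138465479-138469303, + strand), the factor whose promoter held both CArG boxes shown above, was at 84.6, 101 and 91.8 CPM in WT DMSO libraries. It was at 43.6, 38.2 and 36.2 CPM in KO DMSO, at 36.7 and 39.0 CPM in WT 5-FU and at 31.8, 29.0 and 27.1 CPM in KO 5-FU libraries. The 3 WT DMSO libraries were well above all others, and KO DMSO and WT 5-FU cells overlapped, with a difference of 0.05 (SE 0.09, FDR 0.634). EGR1 was 2.35-fold lower in KO than in WT cells in DMSO (log2 -1.23, SE 0.08, FDR 5.42e-09), a difference larger in size than that of 94.9% of the genes tested. After 5-FU it was 2.44-fold lower in WT cells (log2 -1.29, SE 0.09, FDR 5.48e-09). The decrease in KO cells, by 0.42 on the log2 scale (SE 0.09, FDR 4.35e-04), was under the minimum fold change, and the responses differed by 0.87 (SE 0.12, FDR 1.18e-04). In 5-FU EGR1 was lower in KO cells by 0.37 (SE 0.09, FDR 0.00373), also under the minimum.

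IER3 (chr6:30743199-30744548, - strand) was the most abundant of the 10 mRNAs. Its level was 235, 246 and 238 CPM in WT DMSO, 411, 415 and 430 CPM in KO DMSO, 261 and 231 CPM in WT 5-FU and 398, 394 and 384 CPM in KO 5-FU libraries. All 6 KO libraries were above all 5 WT libraries. IER3 was 1.75-fold higher in KO than in WT cells in DMSO (log2 0.81, SE 0.05, FDR 4.04e-09) and 1.59-fold higher in 5-FU (log2 0.67, SE 0.06, FDR 1.55e-07). Without WT 5-FU replicate 3 the latter was 0.58 and under the minimum fold change. The response to 5-FU was 0.04 (SE 0.06, FDR 0.565) in WT and -0.10 (SE 0.05, FDR 0.12) in KO cells, and the difference between the responses was -0.14 (SE 0.08, FDR 0.208).

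Per kilobase of the canonical transcript, the mean level of IER3 was 194 CPM per kb in WT DMSO and 338 in KO DMSO cells, above 97.8 and 98.8% of 14135 genes with a length. FOSL1 was at 59.0 to 105 and JUNB at 41.0 to 57.1 CPM per kb over the 4 states. These 3 mRNAs were in the upper part of all genes in every state. EGR1 was at 29.5 CPM per kb in WT DMSO cells and at 9.33 in KO 5-FU cells. FOSB (0.879 to 2.31) and NR4A3 (0.130 to 0.308 CPM per kb) were low throughout.

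The makeup of the families is given as shares of the summed CPM per kb. Within the NR4A family, NR4A1 took 64.8% ± 1.64 (SD, n = 3) in WT DMSO, 47.8% ± 0.884 (n = 3) in KO DMSO, 84.0% ± 0.564 (n = 2) in WT 5-FU and 81.4% ± 2.15 (n = 3) in KO 5-FU cells. NR4A2 took most of the rest, with 33.99, 50.4, 14.8 and 16.8%, so that it was above NR4A1 in KO DMSO cells only. The order rests on the length used. With merged exon lengths, added after seeing the data, NR4A2 took 55.4% and NR4A1 42.6% in WT DMSO cells as well, and NR4A2 took 70.5% in KO DMSO cells, whereas the direction of the changes in the share of NR4A1 was the same. FOSL1 made up 85.7 to 88.8% of the FOS family (FOS, FOSB, FOSL1 and FOSL2) in every state, while FOS took 7.16% in WT DMSO, 4.71% in KO DMSO, 2.33% in WT 5-FU and 2.43% in KO 5-FU cells. Without division by length FOSL1 was still the largest, with 72.9% in WT DMSO and 64.9% in KO 5-FU cells, and FOSL2 took 17.7 and 29.2% there. In the JUN family, JUN took 11.5% ± 0.515 (n = 3) in KO 5-FU and 5.02 to 7.18% in the other states. JUNB took 45.3 and 47.4% in WT and 34.9 and 35.2% in KO cells (DMSO and 5-FU), with JUND taking most of the remainder. In exact two-sided permutation tests the smallest p is 0.1 for 3 against 3 libraries and 0.2 for 3 against 2, so that none of the 40 share comparisons could pass (smallest adjusted p 0.229).

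**Figure D3:**
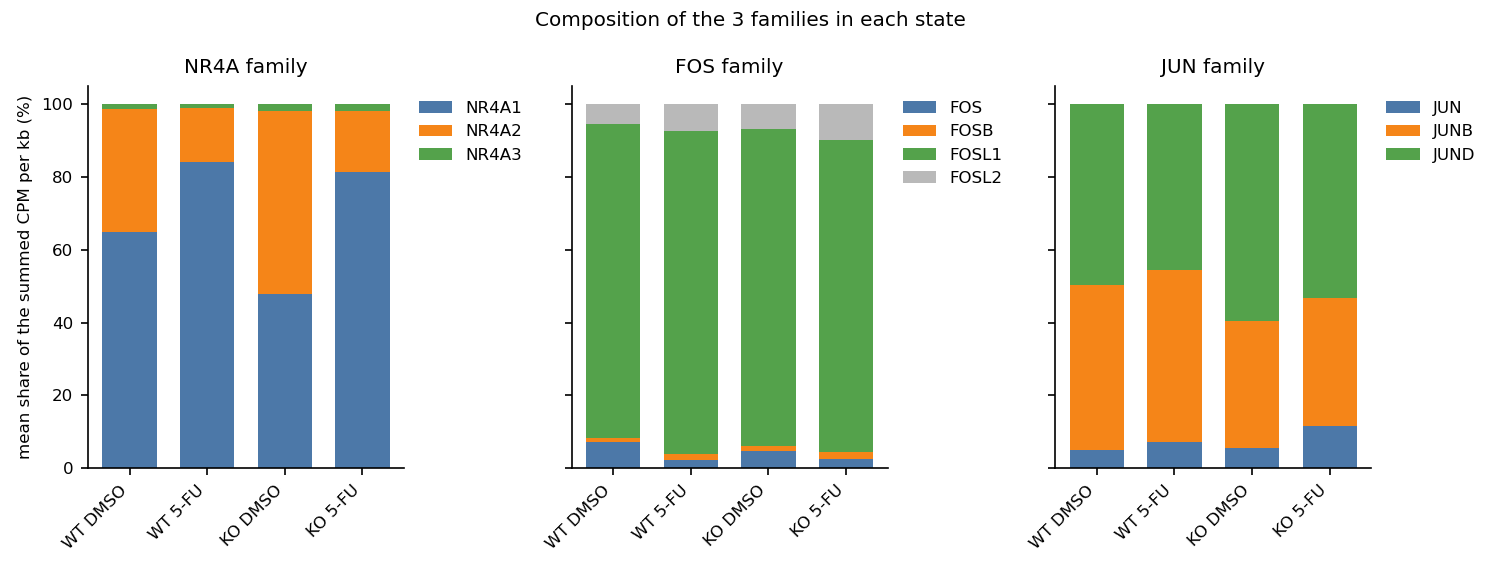
Mean share of each gene in the summed CPM per kb of its family (bars stacked to 100%, 4 states, n = 3 and n = 2 for WT 5-FU). With the canonical lengths used, NR4A2 takes 50.4% of the NR4A family in KO DMSO cells and 14.8 to 33.99% in the other states, and FOSL1 takes most of the FOS family in all 4.

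Across the 11 libraries, FOS and EGR1 varied together (Pearson r = 0.95 of log2 CPM), as did NR4A1 and FOSB (r = 0.95) and NR4A1 and FOSL1 (r = 0.92), whereas NR4A2 and FOSL1 ran opposite (r = -0.90). These values describe 4 states rather than 11 independent samples. Among 14000 other genes, the mRNAs most like the 10 in their pattern were CDK18 (r = 0.996) and CHD5 (0.994) for NR4A1, DCTN2 (0.987) and SNHG7 for NR4A2, USPL1 (0.971) and B3GNT5 for FOS, and AGAP3 and ARHGAP23 (both 0.99) for FOSB. They were RIN1 and FAM83H (both 0.989) for FOSL1, SARM1 (0.990) and EOMES for JUN, PHLDA2 (0.969) and ARRB2 for JUNB, TRIP13 (0.989) and WBP11 for EGR1, and D2HGDH (0.994) and HDLBP (0.992) for IER3. NR4A3 had the lowest values, with RCAN1 (0.884) and WDR91. The genes nearest to IER3 (chr6) lie close together on chr2, D2HGDH at chr2:241734602-241768816 and HDLBP at chr2:241227264-241317061. Both nearest to NR4A1 (chr12) lie on chr1, far from each other.

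The other immediate early genes moved in both directions as well. Of 34 such genes, all tested, 16 were higher and 6 lower after 5-FU in WT cells and 17 higher and 5 lower in KO cells, with a median log2 fold change of 0.60 and 0.67. Of all genes tested, 18.5% were higher and 9.38% lower in WT and 13.3% higher and 12.0% lower in KO cells, with medians of 0.03 and -0.06. CCN1, a secreted matrix protein, rose from a mean of 11.5 to 71.9 CPM in WT (log2 2.64, SE 0.08) and from 9.40 to 77.8 CPM in KO cells (3.04, SE 0.08). ATF3, a stress-induced partner of AP-1 proteins, rose by 2.42 (SE 0.07) and 1.98 (SE 0.07), and BTG2, a p53-inducible antiproliferative gene, by 2.35 (SE 0.06) and 2.18 (SE 0.05). HBEGF, a ligand of the EGF receptor, rose by 1.61 (SE 0.09) in WT and 2.50 (SE 0.08) in KO cells, and the responses differed by 0.89 (SE 0.12, FDR 5.04e-05).

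Between genotypes, 3 of the 34 were higher and 7 lower in KO cells in DMSO, with a median of -0.19, and 5 were higher and 4 lower in 5-FU, with a median of -0.04. Of all genes tested, 9.10% were higher and 4.97% lower in DMSO and 7.58% higher and 10.6% lower in 5-FU, with medians of 0.03 and -0.05. EGR3 stood high in WT DMSO cells as EGR1 did, with a mean of 2.41 CPM in WT DMSO, 0.846 in KO DMSO, 1.002 in WT 5-FU and 1.10 CPM in KO 5-FU cells, and its responses to 5-FU differed by 1.65 (SE 0.35, FDR 0.00309). In KO cells its value after 5-FU was 0.39 (SE 0.25, not called), whereas that of EGR1 was -0.42. EGR2 was at 1.74, 1.15, 3.46 and 6.79 CPM in the same order, and its response was larger in KO cells by 1.57 (SE 0.24, FDR 1.96e-04). EGR4 had 13, 10 and 11 counts in the WT DMSO libraries and 0 in all 3 KO DMSO libraries, and was at least 3.21-fold lower there when 3 counts per KO library are taken as the limit, and it had 20 and 23 counts in WT 5-FU and at most 1 count in KO 5-FU libraries. With EGR4 at this bound the median of the list in DMSO was -0.19 as well. PLK2, a p53-inducible kinase, went from 48.0 to 208 CPM in WT and from 104.4 to 192 CPM in KO cells after 5-FU, and its response was smaller in KO cells (-1.23, SE 0.07, FDR 2.70e-08). TRIB1, a pseudokinase that scaffolds protein degradation, was lower in KO cells by 1.03 (SE 0.05) in DMSO and by 1.47 (SE 0.06) in 5-FU on the log2 scale. In the interaction 3 of the 34 were called higher, namely EGR2, EGR3 and HBEGF, and PLK2 was called lower, beside 3.42% and 6.66% of all genes.

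**Figure D4:**
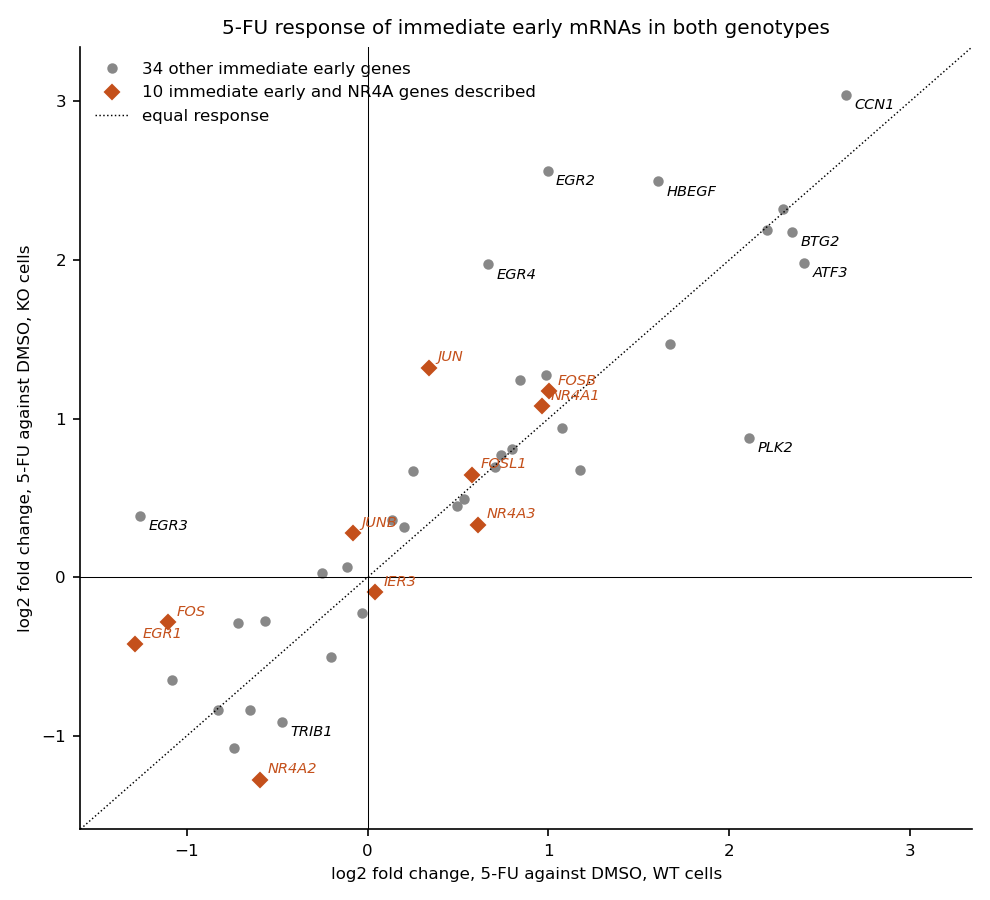
Log2 fold change after 5-FU in WT cells (x axis) and in KO cells (y axis) of the 10 genes (diamonds) and of 34 other immediate early genes (circles), with a dotted line where both are equal. JUN (0.34 and 1.32), EGR2 (0.996 and 2.56) and EGR3 (-1.26 and 0.39) lie above the line and PLK2 (2.11 and 0.88) below it, whereas NR4A1 and FOSB lie near it; EGR4 has at most 1 count in each KO library, so that its position depends on the prior count.

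Among 7 tested of 8 other AP-1 family members, 3 were higher after 5-FU in WT cells (18.5% of all genes), and 1 was higher and 1 lower in KO cells (13.3 and 12.0%). Their median was 0.48 in WT and -0.09 in KO cells, against 0.03 and -0.06 over all genes. FOSL2 rose by 1.01 (SE 0.06) in WT and by 1.20 (SE 0.06) in KO cells. JDP2, a repressor that binds JUN partners, was at 13.3 CPM in WT DMSO, 23.1 in WT 5-FU, 13.8 in KO DMSO and 10.3 CPM in KO 5-FU cells, and its responses differed by -1.23 (SE 0.13, FDR 5.47e-06). BATF2 rose in WT cells by 0.85 (SE 0.16), and in KO cells ATF2 fell by 0.62 (SE 0.08) on the log2 scale. JDP2 and BATF2 were also the members called lower in KO than in WT cells in 5-FU, beside 10.6% of all genes. In DMSO edgeR and DESeq2 called 0 of the 7, beside 14.1% of all genes in edgeR, and 2 had an unadjusted p below 0.05.

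Of 18 AP-1 target genes tested of 20 listed, 8 were higher and 1 lower after 5-FU in WT cells, and 4 were higher and 2 lower in KO cells. Their median was 0.45 in WT and 0.35 in KO cells, beside 18.5% higher, 9.38% lower and a median of 0.03 over all genes in WT and 13.3%, 12.0% and -0.06 in KO cells. HMOX1, the heme oxygenase, rose by 1.20 (SE 0.10) in WT and by 1.15 (SE 0.09) in KO cells. MMP13, a collagenase, was at 1.49 CPM in KO DMSO and at 0.119 to 0.261 CPM in the other states. Between genotypes, 3 targets were higher and 4 lower in KO cells in DMSO, and 3 were called in 5-FU, all lower (MMP9, MMP7 and HMGA1). Over all genes 9.10% were higher and 4.97% lower in DMSO, and 10.6% were lower in 5-FU. The median of the targets was 0.14 in DMSO and -0.04 in 5-FU, against 0.03 and -0.05 over all genes.

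Of the upstream transcription factors and EGR corepressors (17 tested), 3 were called after 5-FU in each genotype, 2 higher and 1 lower, beside 27.8% of all genes in WT and 25.2% in KO cells. Their median was 0.02 and 0.06, against 0.03 and -0.06 over all genes. ELK3, a ternary complex factor, was at 117 CPM in WT DMSO, 69.4 in KO DMSO, 237 in WT 5-FU and 173 CPM in KO 5-FU cells, and was lower in KO cells in DMSO by 0.76 (SE 0.05). MEF2C was lower in KO cells by 0.90 (SE 0.11) in DMSO and by 1.71 (SE 0.13) in 5-FU, and NAB2, the EGR corepressor, rose after 5-FU in KO cells by 0.69 (SE 0.07) and was at 0.31 (SE 0.07) in WT cells, under the minimum fold change. Of 17 upstream kinases tested of 18 listed, 3 were called in WT and 2 in KO cells after 5-FU, beside the same shares, with medians of -0.05 and -0.11. RPS6KA5 (MSK1), a kinase that acts on CREB and histones at immediate early genes, was lower in KO cells by 1.34 (SE 0.08) in DMSO and by 1.07 (SE 0.08) in 5-FU. RPS6KA2, an ERK-activated kinase, stood highest in KO DMSO cells, as NR4A2 did, with 14.5, 24.01, 12.3 and 11.98 CPM in WT DMSO, KO DMSO, WT 5-FU and KO 5-FU cells.

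Of 10 decay factors of AU-rich mRNAs, which shorten the life of immediate early transcripts, 2 were called after 5-FU in WT cells, both lower, and 1, also lower, in KO cells, beside 9.38% and 12.0% of all genes. Their median was -0.24 in WT and -0.19 in KO cells, against 0.03 and -0.06 over all genes. ZFP36 fell by 0.71 (SE 0.08) in WT cells and its value in KO cells was -0.29 (SE 0.07), under the minimum fold change, while HNRNPD fell by 0.68 (SE 0.06) and 0.71 (SE 0.06). ZFP36L2 was lower in KO than in WT cells in DMSO by 0.71 (SE 0.07). Of 5 tested of 12 NR4A partners and target genes, 3 were higher in KO cells in DMSO (9.10% of all genes), with a median of 0.68 against 0.03, and they were VIM (2.37, SE 0.12), ENO3 (0.71, SE 0.11) and RXRA (0.68, SE 0.06), the retinoid receptor that pairs with NR4A1 and NR4A2. After 5-FU 0 of the 5 were called in WT cells, beside 27.8% of all genes, with a median of 0.09 against 0.03. In KO cells 2 were lower after 5-FU, among them VIM, beside 12.0% of all genes, with a median of -0.51 against -0.06. In 5-FU 2 were higher in KO than in WT cells, VIM and RXRA (7.58% of all genes), with a median of 0.007 against -0.05. VIM, a mesenchymal filament protein, was at 2.37, 12.3, 1.66 and 4.37 CPM in WT DMSO, KO DMSO, WT 5-FU and KO 5-FU cells, and its responses to 5-FU differed by -0.97 (SE 0.19, FDR 0.00182). Of 10 heat shock genes, fixed as signs of handling stress, 1 was higher and 3 lower after 5-FU in WT cells and 1 was higher and 2 lower in KO cells. Their median was -0.39 in WT and -0.29 in KO cells, beside 18.5% higher, 9.38% lower and a median of 0.03 over all genes in WT and 13.3%, 12.0% and -0.06 in KO cells. Of them 1 was called between genotypes in DMSO, beside 14.1% of all genes, namely HSPH1, which was lower in KO cells by 1.25 (SE 0.06). The part of these differences in the levels of the 10 genes was not tested.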

How the data were processed

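RNA of HCT116 cells in 4 states was measured by RNA-Seq. According to the methods of the study, random-primed libraries were sequenced with paired ends, and CLC Genomics Workbench was used for mapping to GRCh38 and counting on ENSEMBL genes. The release and the use of strand are not given in the sources used here. The values deposited by the authors are counts per gene symbol, not normalized. The titles gave the state of each sample, and 11 of 12 libraries were used (22831415 to 39064210 counts). Precision is limited by the spread between libraries (biological coefficient of variation 6.72%) and, for NR4A3, also by counting error.

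A gene was tested if any library had 20 or more counts of it (16123 genes). Upper-quartile factors were 0.955 to 1.05. The quasi-likelihood test of edgeR 4.0.16 in R 4.3.3 (glmQLFit and glmQLFTest, two-sided) was run with 1 mean per state over all 11 libraries, p-values were Benjamini-Hochberg adjusted across these genes, and a call required FDR < 0.05 and a fold change above 1.5. CPM refer to the scaled totals, and a prior count of 2 was added for log2 CPM. The SE is the log2 fold change divided by the square root of F. The procedure was tested on simulated data. Levels per kb used the canonical transcript of the GENCODE annotation of GRCh38. Alternatives were TMM factors, DESeq2 1.42.0, other filters and thresholds, RUVg, a replicate block, fits of the states compared only, leaving out each library, and the copied library as labelled.

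The genes and all gene lists were chosen with earlier results of these data known. All 10 genes are named. From each list, at most 3 called genes with the largest fold changes per comparison were named (1 of these genes is not reported here), together with JUND and with the genes that overlap FOSB and JUNB. For likeness, the 2 genes with the highest Pearson r of log2 CPM were named.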

Additional observations from a re-analysis of the deposited data

Results flagged for a closer look

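The response to 5-FU differed between the genotypes for 4 of the 10 genes, beside 10.1% of all genes. The difference itself was tested (the interaction in edgeR). The response of KO cells minus that of WT cells was -0.68 on the log2 scale for NR4A2, 0.82 for FOS, 0.98 for JUN and 0.87 for EGR1. In each case 3 of 3 libraries of 1 state lay beyond every other library, namely KO DMSO for NR4A2, WT DMSO for FOS and EGR1 and KO 5-FU for JUN. Except for FOS, the other 3 states also differed among themselves, as given below. Leaving out any 1 of the 11 libraries gave -0.84 to -0.47 for NR4A2, 0.69 to 0.93 for FOS, 0.90 to 1.03 for JUN and 0.80 to 0.95 for EGR1, and without WT 5-FU replicate 2 the value of NR4A2 was no longer called. A test against the minimum fold change itself (glmTreat) and RUVg each kept the call for JUN (FDR 0.0388 and 2.24e-04), and neither kept it for NR4A2 (FDR 1.0 and 0.418), FOS (0.601 and 0.167) or EGR1 (0.163 and 0.0548). By FDR alone in edgeR, EGR1 was also lower in KO than in WT cells in 5-FU (log2 -0.37, FDR 0.00373). JUN was also higher after 5-FU in WT cells (0.34, FDR 0.00527), and NR4A2 was lower in KO 5-FU than in WT DMSO cells (-0.35, FDR 0.00782). All were under the minimum fold change, and 49.6%, 60.2% and 68.2% of all genes passed in these comparisons. The effect in WT cells rests on 2 libraries treated with 5-FU.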

How the results depend on the processing

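The limits are the 2 WT 5-FU libraries, the low counts of NR4A3 and values close to the minimum fold change. With TMM factors, no filter and DESeq2 the number of genes called was the same in all 5 comparisons. JUN, KO against WT in DMSO, was -0.0001 with DESeq2. With 20 counts in every library NR4A3 was not tested. The numbers in the titles did not pair the libraries: the correlation of the deviations of same-numbered libraries was -0.09 to 0.08 (15 pairs), and 3 of 11 libraries were closest to one with their own number. With the replicate block the counts of genes called were 4, 5, 5, 2 and 4 (4397, 4024, 2249, 2773 and 1517 of all genes) in the order 5-FU in WT, 5-FU in KO, genotype in DMSO, genotype in 5-FU and interaction, against 5, 5, 5, 2 and 4 without it, the value of NR4A2 in WT cells was -0.57, and that of FOS, KO against WT in 5-FU, was 0.0255. The headers of the tables number the 2 WT 5-FU libraries 1 and 2 where the titles have 2 and 3. A replicate block on the header numbers, added after seeing the data, gave 5, 5, 4, 2 and 4. The numbers of all genes called with this block are not given here.

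RUVg used 1 factor from 11123 control genes, and 98.2% of the variation of this factor lay between the treatments. It called 3 of all genes after 5-FU in WT and 1 in KO cells, and 0 of the 10 genes in both (2 with an unadjusted p below 0.05 in each, and 5 in each by DESeq2 without RUVg), 3 between genotypes in DMSO (1428 of all genes) and 2 in the interaction (885), namely JUN and JUNB (0.87), and 9 of 60 differences between states past FDR < 0.05 against 43. Its values turned for NR4A1 (-2.25), NR4A3 (-4.00), FOSB (-1.90), FOSL1 (-0.82), JUN (-2.99), EGR1 (0.75) and IER3 (-1.27) after 5-FU in WT cells. In KO cells they turned for NR4A1 (-1.76), NR4A3 (-3.72), FOS (0.0013), FOSB (-1.39), FOSL1 (-0.59), JUN (-1.63), JUNB (-3.56) and EGR1 (1.38). Between genotypes they turned for FOSB (-0.24) and JUN (-0.50) in DMSO and NR4A1 (-0.10) in 5-FU, and in the interaction for NR4A3 (0.28) and IER3 (0.0169). By construction, a factor that largely coincides with the treatment takes up the response.

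With the copied library as labelled, 0 of the 10 genes and 0 of all genes were called after 5-FU in WT cells (6 of the 10 with an unadjusted p below 0.05), 4 between genotypes in 5-FU (2590 of all genes) and 1, JUN, in the interaction (428), 28 of 60 differences passed, and NR4A2 between genotypes in 5-FU was -0.0344. With glmTreat, 3 were called between genotypes in DMSO (929 of all genes), 1 in 5-FU (1187) and 1, JUN, in the interaction (289), and 23 of 60 differences passed. Without a minimum fold change 5 were called between genotypes in 5-FU, beside 49.6% of all genes (7995).

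Leaving out each library gave 4 to 6 genes called in WT cells, 5 to 6 in KO cells, 4 to 5 between genotypes in DMSO, 1 to 3 in 5-FU and 4 in the interaction. Without WT 5-FU replicate 2 the 4 in the interaction included JUNB (0.59) and not NR4A2 (-0.47). The 1 in 5-FU came without WT 5-FU replicate 3, where IER3 was under the minimum. In the fit of all libraries 27.8, 25.2, 14.1, 18.1 and 10.1% of all genes were called in these comparisons. The shares in the fits without 1 library are not given here. Near 0, the sign changed for IER3 (-0.0535 to 0.13) and JUNB (-0.32 to 0.12) after 5-FU in WT cells, for JUN between genotypes in DMSO (-0.0204 to 0.11) and for NR4A1 (-0.10 to 0.19), FOS (-0.18 to 0.0572) and JUNB (-0.32 to 0.12) in 5-FU. In the interaction it changed for NR4A1 (-0.0187 to 0.27), NR4A3 (-0.58 to 0.19), FOSB (-0.0268 to 0.41) and FOSL1 (-0.01 to 0.16). With CPM not divided by length, the change in the share of FOSL1 was -1.19 percentage points after 5-FU in WT cells and -2.01 between genotypes in DMSO. It was -5.92 after 5-FU in KO cells and -6.74 between genotypes in 5-FU. With merged exon lengths, added after seeing the data, the changes in the shares of NR4A1, FOSL1 and JUND kept their direction, that of FOSL1 between genotypes in DMSO was 0.0432 percentage points, and NR4A2 was above NR4A1 in WT DMSO cells. The cause of the other changes was not tested.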
